A study of Saccharomyces cerevisiae with 6 samples.

Results

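The cytosolic small ribosomal subunit (40S) protein genes of budding yeast, Saccharomyces cerevisiae, were compared between cells with an empty plasmid and cells with a yEVenus multi-copy plasmid. Members were all genes whose platform symbol is RPS followed by a number and, for some, the letter A or B, with the brightest probe set taken where a gene had several. This gave 52 of the 5449 genes measured. They encode 31 proteins: 21 were measured as A and B paralogue pairs, 7 come from genes with no paralogue, and 3 (RPS4B, RPS6B and RPS30A) had 1 measured gene of a pair. The genes RPS4A, RPS6A and RPS30B were not analysed here.

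Both groups carry the SSE1 deletion, which removes an Hsp110 chaperone and was used by the study to sensitise the cells, so every comparison below is within that background. Each group had 3 arrays, made from independent colonies grown without leucine to exponential phase. yEVenus is a yellow fluorescent protein foreign to yeast, and no value here measures the protein or its RNA. The deleted gene checked the strain: SSE1 read 3.14 ± 0.116 (log2, SD, n = 3) in the empty-plasmid group and 3.17 ± 0.071 (n = 3) in the yEVenus group, near the bottom of a scale that ran from 2.27 to 14.24. Of 4 mating-type markers of a cells, yEVenus minus empty plasmid was 1.72 for MFA1, 0.71 for MFA2, 0.41 for BAR1 and -0.09 for STE2. Of the 2 markers of alpha cells it was -0.87 for STE3 and 0.22 for SAG1, and the part of these in the results was not tested.

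The small subunit binds mRNA and the initiator tRNA, scans to the start codon and holds the decoding centre. Its proteins sit in a head, a body and a platform on the 18S rRNA, and growing yeast spends a large share of its transcription on the genes that encode them. Most of these proteins come from a pair of paralogous genes kept from an ancient genome duplication, and many of the genes carry an intron, which is uncommon in yeast. In several pairs one copy is held down by its own protein product through splicing or mRNA decay.

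Levels are log2 values after RMA, which equalises the distributions of the arrays, so a difference is relative to the bulk of transcripts. Pearson's r between arrays, over all genes, was 0.996 to 0.998 within a group and 0.966 to 0.978 across groups. "Rose" and "fell" mean an adjusted p below 0.05 in limma, fitted and adjusted over all 5449 genes. The gap between 3' and 5' control probe sets, averaged over 7 yeast genes, was 1.83 ± 0.0291 (SD, n = 3) for the empty plasmid against 2.48 ± 0.0668 (n = 3) for yEVenus, and it was larger on every yEVenus array for 7 of 7 genes. Its part in the results below was not tested.

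Small subunit genes changed little in size, as did bright genes in general (described below). Differences above 0 were seen in 39 of 52 members, and in 2345 of all 5449 genes. The members' median turned below 0 once a trend with gene length was removed, as also described below. Of the 52, 22 rose (42.3%, where 29.3% of all genes rose), 8 fell (15.4%, where 41.0% of all genes fell) and 22 did not pass. With each array centred on its median instead, 31 rose and 4 fell (33.9% and 34.1% of all genes, 68.0% together). In total 57.7% were called, against 70.4% of all genes. The median log2 difference, yEVenus minus empty plasmid, was 0.09 over the members and -0.07 over all genes. For 42 of the 52 the difference was below 0.25 in size, and 1 gene, RPS9A, reached 2-fold. The median absolute log2 difference was 0.16 over the members and 0.30 over all genes. No overlap between the groups was seen for 43 of 52 members, or 82.7%, where the share over all genes was 74.9%. Tested against a minimum change of 1.2-fold, 5 of 52 members passed (9.62%), against 32.2% of all genes. All 5 rose (15.5% of all genes did so and 16.6% fell by this rule). These were RPS9A, RPS14B, RPS22B, RPS10B and RPS25B.

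**Figure D1:**
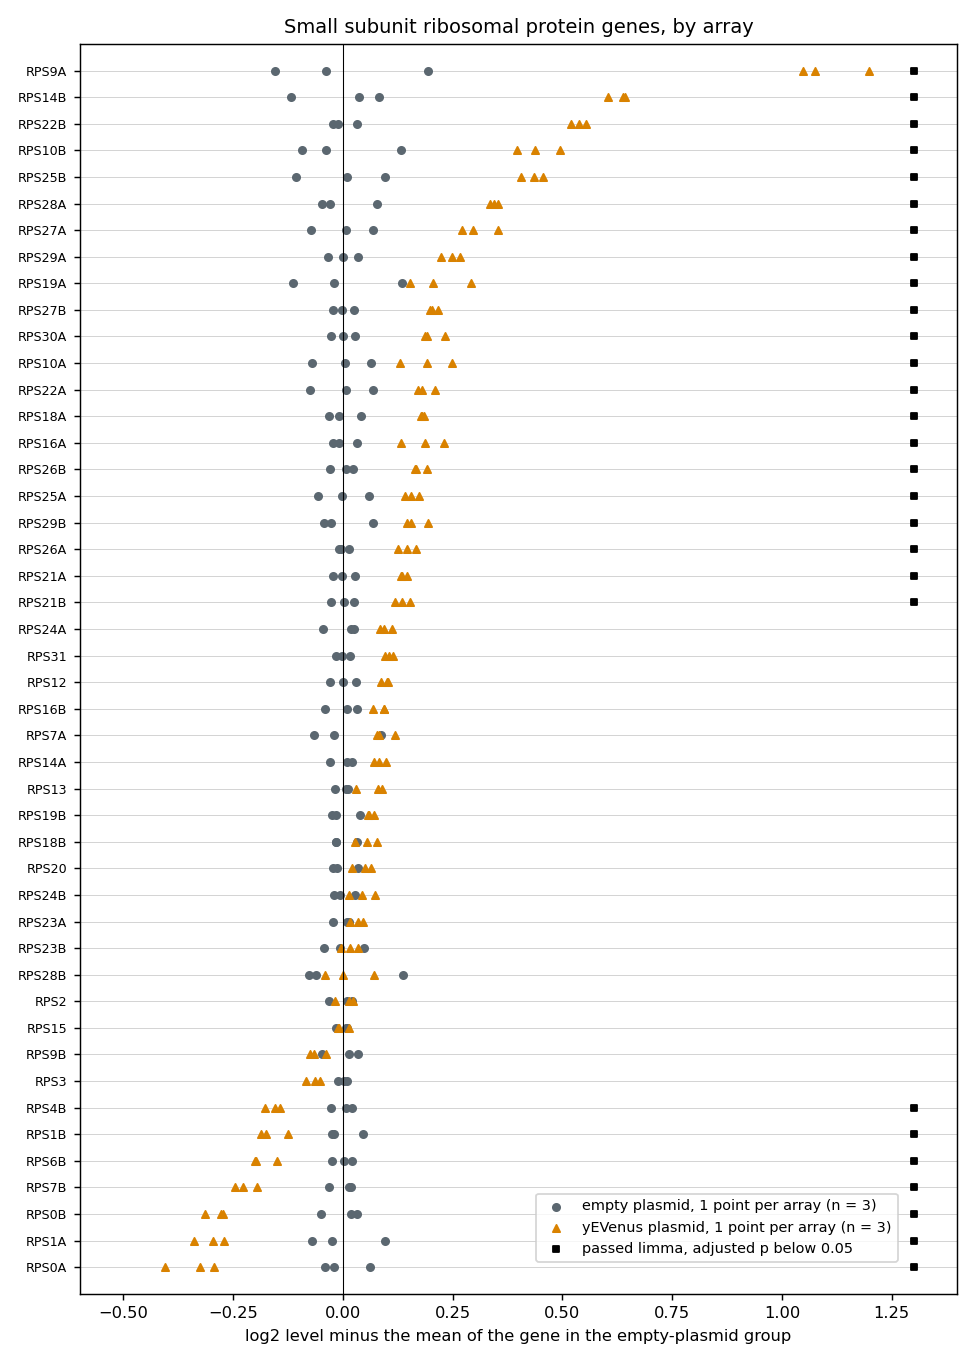
Log2 level of 46 of the genes on each array, minus that gene's mean in the empty-plasmid group; circles are the 3 empty-plasmid arrays, triangles the 3 yEVenus arrays, and squares at the right mark the 28 of these that passed limma. RPS9A stands at the top with a difference of 1.11, and RPS0A at the bottom with -0.34.

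Among proteins of the body and platform, RPS9A (YPL081W, chromosome XVI) changed most. Rps9 lies in the body near the mRNA entry and bears on decoding accuracy, and the splicing of the A copy is held down by the protein itself. Its log2 levels were 9.39, 9.15 and 9.04 on the empty-plasmid arrays and 10.39, 10.24 and 10.27 on the yEVenus arrays. All yEVenus arrays lay well above all empty-plasmid arrays, and the rise was 2.15-fold (log2 difference 1.11 ± 0.092, SE; adjusted p = 3.51e-05).

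RPS14B (YJL191W, chromosome X) was the next. Rps14 is a platform protein, and it binds the RPS14B transcript and blocks its splicing. The levels were 11.46, 11.51 and 11.31 with the empty plasmid and 12.06, 12.03 and 12.07 with yEVenus. The groups were apart on every array, with a 1.55-fold rise (0.63 ± 0.0626, SE; adjusted p = 7.85e-05).

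RPS22B (YLR367W, chromosome XII) encodes a copy of a body protein; an intron of this copy is known to be cut by the RNase III enzyme Rnt1. It went from 12.47, 12.42 and 12.41 to 12.95, 12.99 and 12.97. The separation was many times the spread within either group, for a 1.45-fold rise (0.54 ± 0.0462, SE; adjusted p = 4.03e-05). RPS27A, whose product is a zinc-binding protein, went from 12.66, 12.60 and 12.52 to 12.86, 12.94 and 12.89. It rose 1.24-fold with no overlap of the groups (adjusted p = 0.00156).

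In the head, RPS10B, RPS25B and RPS28A rose most. Rps10 sits at the mRNA entry side, and RPS10B (YMR230W) went from 11.94, 11.77 and 11.71 to 12.20, 12.30 and 12.24. Its rise was 1.36-fold with the groups apart (0.44 ± 0.0685, SE; adjusted p = 6.89e-04). Rps25 is the protein that several viral and cellular internal initiation sites need, and RPS25B (YLR333C) went from 12.94, 12.86 and 12.74 to 13.28, 13.30 and 13.25. It rose 1.35-fold (adjusted p = 4.59e-04), and again no array of one group reached the other. RPS28A (YOR167C), for a small protein near the mRNA exit, went from 13.11, 13.01 and 12.99 to 13.38, 13.39 and 13.37. The yEVenus arrays were tightly grouped above the others, at 1.27-fold (adjusted p = 6.3e-04).

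All 8 falls were in body and platform proteins. RPS0A and RPS0B encode a protein on the solvent side of the body near the mRNA exit. RPS0A (YGR214W) went from 12.86, 12.94 and 12.84 to 12.59, 12.48 and 12.56, a log2 difference of -0.34 ± 0.0551 (SE; adjusted p = 8.64e-04). RPS0B (YLR048W) went from 13.31, 13.33 and 13.25 to 13.02, 12.98 and 13.02, a difference of -0.29 ± 0.0484 (adjusted p = 0.00105). Both copies were lower on every yEVenus array.

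RPS1A (YLR441C), for a large platform protein, went from 12.53, 12.41 and 12.36 to 12.16, 12.14 and 12.09, also without overlap. It fell by 0.30 ± 0.0584 on the log2 scale (SE; adjusted p = 0.00219), and its paralogue RPS1B fell by 0.16. RPS7B, for a protein ubiquitinated by Not4 during translational control, was at -0.22, and RPS6B, for the protein phosphorylated downstream of TOR, at -0.18. RPS4B was at -0.16. The probe sets of RPS4B and RPS6B, and that of RPS30A among the rises below, have names that mark a match to several transcripts. The values of these genes may therefore hold both copies of the pair.

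By place in the subunit, 11 of 21 head genes rose (52.4%) and 0 fell, and their median was 0.15. Of all genes, 29.3% rose and 41.0% fell. Of the 2 head genes below 0, RPS3 and RPS15, neither had an unadjusted limma p under 0.05 (0.174 and 0.962). Of 31 body and platform genes, 11 rose and 8 fell (35.5% and 25.8%), and their median was 0.05. Head genes were the shorter, with a median length of 723 nt against 803 nt. The difference between the places was not tested. The count of 0 falls holds for this fit: at the same limma threshold with the length trend removed, as described below, 10 head genes fell and 4 rose. Of the body and platform genes 11 then fell and 4 rose, where 33.5% of all genes fell and 31.4% rose. The other head genes that rose included RPS10A, RPS16A, RPS18A, RPS19A, RPS25A, RPS29A and RPS29B, with differences of 0.16 to 0.25. Those of the body and platform were RPS21A, RPS21B, RPS22A, RPS26A, RPS26B, RPS27B and RPS30A, at 0.14 to 0.21.

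The 7 genes with no paralogue did not pass limma in either direction, where 70.4% of all genes were called. Among them, RPS31 had an unadjusted p under 0.05 (0.0483). The mean levels of the 7 were 13.45 to 13.85, and 53.8% of all genes at 13 or more were called. Their differences ran from -0.07 for RPS3, whose product lines the mRNA entry channel, to 0.10 for RPS12 and RPS31; RPS31 encodes its protein fused to ubiquitin. For RPS31 the log2 levels were 13.81, 13.78 and 13.79 with the empty plasmid and 13.89, 13.91 and 13.90 with yEVenus, so the groups were apart although limma gave an adjusted p of 0.0665. RPS3 was lower on every yEVenus array, at 13.60, 13.58 and 13.60 against 13.53, 13.51 and 13.54 (adjusted p = 0.211). RPS2, RPS15 and RPS20 overlapped between the groups, and RPS13 did not, with a difference of 0.07. With a variance prior that follows the level, limma called 39 members (29 rises and 10 falls; 71.5% of all genes were called, 29.7% rose and 41.7% fell) and passed RPS3, RPS12, RPS13 and RPS31 (adjusted p of 0.0233, 0.00397, 0.037 and 0.00135). In limma with the length trend removed, as described below, 5 of the 7 fell and 0 rose, with a median of -0.28. Of all genes 33.5% then fell and 31.4% rose. RPS3 was then at -0.16 and RPS15 at -0.43 (adjusted p = 0.0122 and 2.42e-04).

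The members lie at the top of the array's range. The mean level was 13 or more for 39 of them, and 160 of all genes lay there; the highest value in the table was 14.24. The 39 had a median absolute log2 difference of 0.11 and the other 13 one of 0.30. All 160 genes at the higher level, members included, had one of 0.14, and 53.8% of them were called. Of the 39 members 48.7% were called. The 70 RPL genes had a median absolute difference of 0.12, and 48.6% were called. Across the 52 genes Spearman's rho of absolute difference and mean level was -0.57, a description over genes that share the same 6 arrays. Bright probe sets near the upper end of a scanner's range can show less than the full change, and how far these do was not tested.

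**Figure D2:**
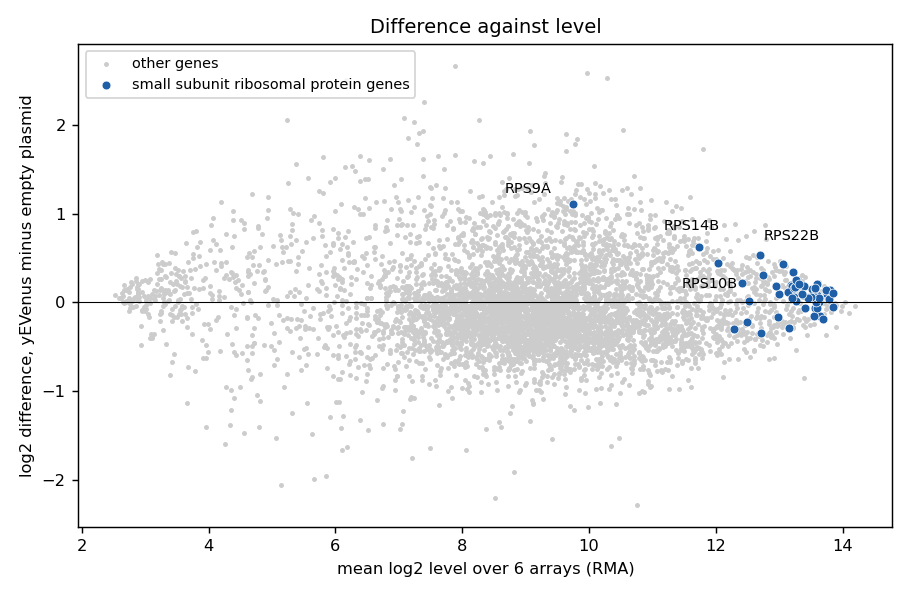
Log2 difference, yEVenus minus empty plasmid, against mean log2 level over the 6 arrays, for the 52 small subunit genes (blue) and the other genes (grey). Most members sit above a level of 13 with differences close to 0, and RPS9A, with levels between 9.04 and 10.39, stands apart.

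Direction over all genes followed gene length, and small subunit genes are short. Spearman's rho of the log2 difference and gene length was -0.46 over all genes and -0.31 over the members, across genes that are not independent. In the class up to 400 nt, 8 of 10 members rose and 0 fell (limma; the other 2, RPS20 and RPS28B, were at 0.04 and 0.01). Their median was 0.17, while all 430 genes of that length had a median of 0.56 and 74.9% rose. Of 23 members over 800 nt, 7 rose and 5 fell (median 0.06), where 3983 genes of that length had a median of -0.18, with 18.1% rising and 50.9% falling. So the short members were above 0 by less than short genes in general, and the long members were above the median of long genes. Whether either gap exceeds chance was not tested.

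With a loess trend on log2 gene length taken out of each array, 8 members rose and 21 fell (over all genes 31.4% rose, 33.5% fell and 65.0% were called), and the median turned from 0.09 to -0.04. Of the 30 calls, 15 kept both call and direction, 8 rises and 7 falls, and 7 rises became falls. RPS9A stayed at 1.19, RPS14B at 0.59, RPS22B at 0.52 and RPS10B at 0.35, while RPS28A went to -0.27, RPS27A to 0.10 and RPS25B to -0.13. RPS0A and RPS0B were both at -0.19 and RPS1A at -0.37. The lengths include introns, and 24 of the 52 are not multiples of 3. Giving both copies of a pair the shorter of their lengths left 6 rises and 22 falls (31.4%, 33.6% and, together, 64.9% of all genes), with RPS9A at 1.15 and RPS14B at 0.53; RPS22B was then at 0.06 (adjusted p = 0.288), as its length of 876 nt was replaced by the 393 nt of RPS22A.

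**Figure D3:**
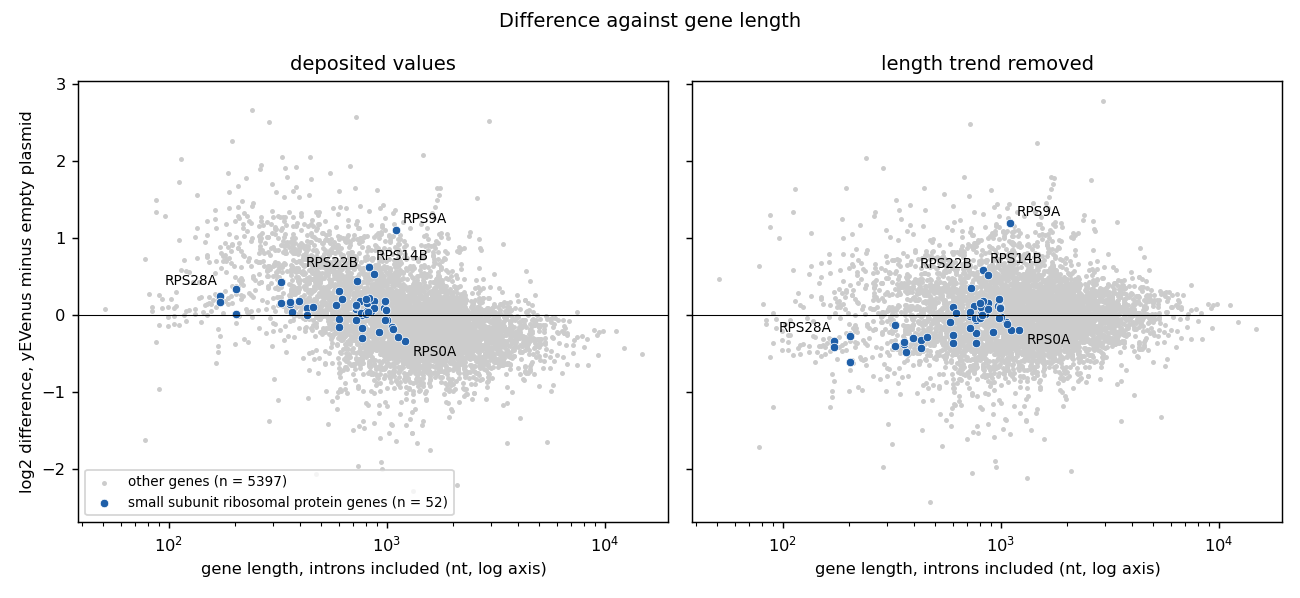
Log2 difference, yEVenus minus empty plasmid, against gene length in nt on a log axis, for the deposited values (left) and after removal of the length trend (right), with small subunit genes in blue and the other genes in grey. On the left the short genes lie mostly above 0; on the right the short members lie below 0, and RPS9A and RPS14B remain above.

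Paralogues often responded differently. The test used A minus B within each array, compared between the groups with limma over all 52 A and B pairs of the table, of which 27 are RPL pairs and 4 belong to other families. The responses of A and B differed in 14 of 21 small subunit pairs (66.7%), where 50.0% of all pairs were called. RPL pairs gave 11 of 27. A minus B did not overlap between the groups in 15 of 21 pairs, against 55.8% of all pairs. Of the 14, the A copy had the higher difference in 9 and the lower in 5. In 7 of the 21 pairs both copies rose, in 2 both fell, and in 0 did one copy rise while the other fell (limma on each gene; RPS7 came nearest, with 0.09 and -0.22). The share over all pairs is not given for these counts, and whether other pairs differ in them was not tested. Since the array reads A and B by different probe sets, only their changes were compared, not their levels.

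**Figure D4:**
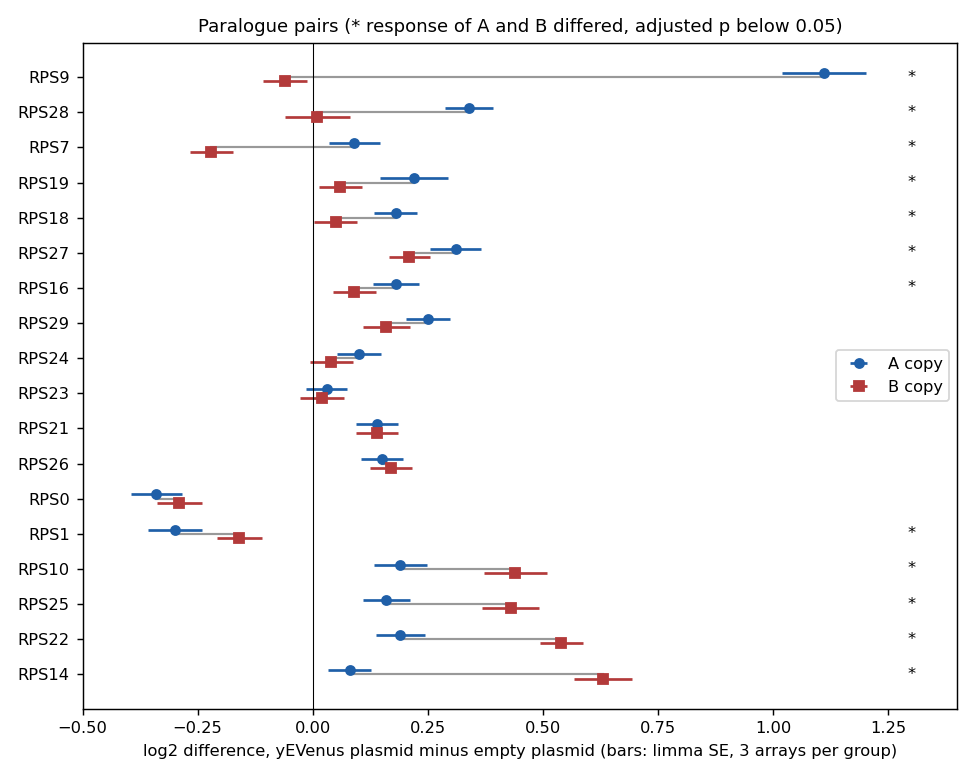
Log2 difference, yEVenus minus empty plasmid, of the A copy (blue circles) and the B copy (red squares) of 18 pairs, with the limma SE as bars (3 arrays per group); stars mark the 12 pairs shown whose responses differed. RPS9 has the widest gap at 1.17, followed by RPS14 at 0.54.

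The widest gap was in RPS9. RPS9A rose by 1.11 as given above, and RPS9B (YBR189W), the copy on chromosome II, went from 13.47, 13.45 and 13.39 to 13.37, 13.40 and 13.36 with overlapping groups. The response of A exceeded that of B by 1.17 on the log2 scale, with a 95% interval of 1.02 to 1.32 (adjusted p = 8.08e-07). In RPS14 the B copy moved and the A copy, at 13.58, 13.57 and 13.53 against 13.66, 13.64 and 13.63, was higher on every yEVenus array but by only 0.08 (adjusted p = 0.136). The gap of A minus B was -0.54, interval -0.64 to -0.45 (adjusted p = 4.9e-06). These pairs were also the only small subunit pairs to pass a minimum change of 1.2-fold, with adjusted p of 4.32e-06 and 7.59e-04; of all A and B pairs, 3.85% did.

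RPS22, RPS10 and RPS25 moved upward in both copies, with the larger rise in B. RPS22A went from 12.92, 12.86 and 12.78 to 13.03, 13.06 and 13.02, a rise of 0.19 against 0.54 for RPS22B. The gap was -0.35, interval -0.42 to -0.28 (adjusted p = 1.67e-05). RPS25A went from 13.21, 13.15 and 13.09 to 13.30, 13.32 and 13.29, a rise of 0.16 against 0.43 for its paralogue. That gap was -0.27, interval -0.34 to -0.20 (adjusted p = 7.06e-05). RPS10A went from 13.16, 13.10 and 13.03 to 13.23, 13.34 and 13.29, a rise of 0.19 against 0.44. That gap was -0.25, interval -0.33 to -0.18 (adjusted p = 1.86e-04), so in all 3 pairs B exceeded A by more than the spread between arrays. RPS10A is read by a probe set named as open to related sequences.

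RPS28 and RPS7 had the gap the other way. RPS28B (YLR264W), whose mRNA is decayed through a site bound by its own protein and Edc3, had levels of 12.65, 12.46 and 12.44 with the empty plasmid and 12.47, 12.59 and 12.52 with yEVenus. The groups overlapped for RPS28B while RPS28A rose, a gap of 0.33 with an interval of 0.25 to 0.42 (adjusted p = 7.06e-05). RPS7A went from 13.03, 12.93 and 12.88 to 13.03, 13.06 and 13.02 and did not pass, while RPS7B fell from 12.62, 12.62 and 12.57 to 12.36, 12.37 and 12.41. The gap was 0.31, interval 0.23 to 0.40 (adjusted p = 1e-04). In RPS1 both copies fell and A by more, a gap of -0.14 (interval -0.21 to -0.07; adjusted p = 0.00506). In RPS19, for a head protein needed to mature the small subunit, RPS19A went from 12.44, 12.28 and 12.19 to 12.51, 12.59 and 12.46 and rose by 0.22. RPS19B, at 13.51, 13.46 and 13.45 against 13.53, 13.54 and 13.53, did not pass (0.06), and the gap was 0.15, interval 0.04 to 0.27 (adjusted p = 0.0254). The probe set used for RPS19B has a name that marks a match to several transcripts. With its plainly named probe set instead, the gap was 0.12 (adjusted p = 0.0283).

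**Figure D5:**
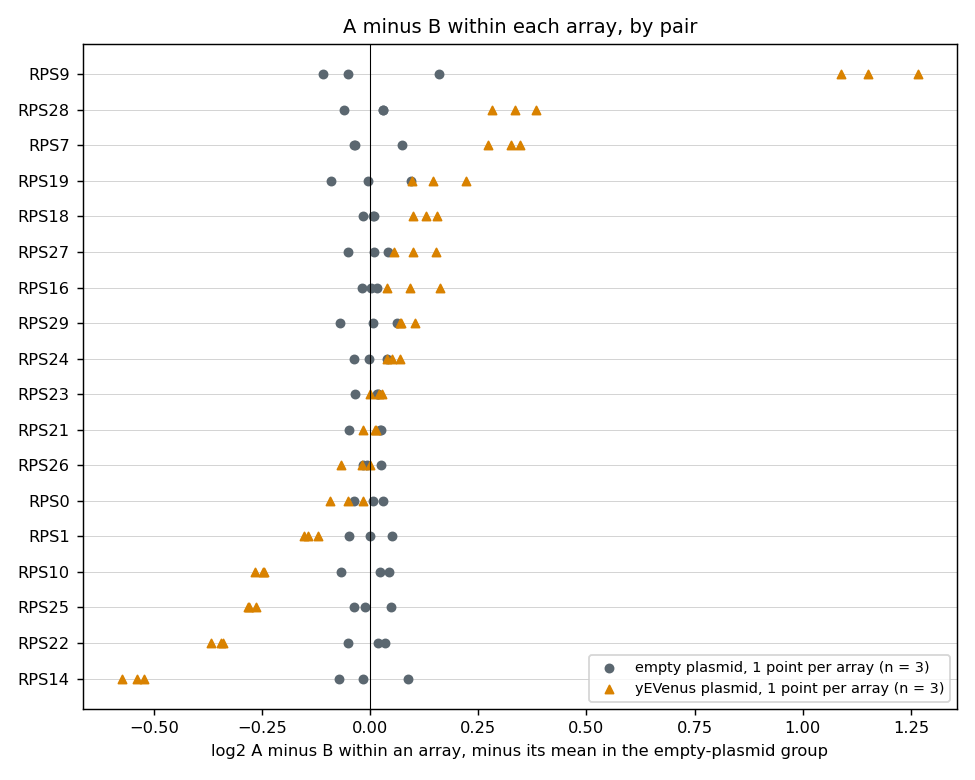
A minus B on each array for 18 pairs, as the difference from its mean in the empty-plasmid group (log2); circles are the 3 empty-plasmid arrays and triangles the 3 yEVenus arrays. The groups are apart in 13 of these pairs, and the circles of RPS9 and RPS14 lie far from their triangles.

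Several of these pairs have genes of equal length, so a trend on gene length cancels within them. RPS28A and RPS28B are both 204 nt, RPS25A and RPS25B both 327 nt and RPS1A and RPS1B both 768 nt. Their gaps stayed at 0.33, -0.27 and -0.14 by construction, so the removal could not test them. For pairs of unequal length, removal took RPS9 from 1.17 to 1.22, RPS14 from -0.54 to -0.60, RPS7 from 0.31 to 0.34 and RPS22 from -0.35 to -0.81. The last rests on the intron-bearing length of RPS22B: with the shorter length given to both copies, RPS22A was at -0.30 and RPS22B at 0.06. In all, 13 pairs were called after removal and 11 were called with the same direction in both fits. For the pairs of equal length among these the gap was fixed in advance. No share over all pairs is given for this fit. The calls of RPS19 and RPS27 were among those that ended (adjusted p = 0.179 and 0.22), and that of RPS21 was among those that appeared (adjusted p = 0.00729).

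The small gaps depended on the probe set. A further probe set was on the array for 13 members, with the same sign as the brightest for 13 of 13 and a median gap between their differences of 0.03. The widest gap was 0.18. With a plainly named probe set in place of one marked as shared or cross-matching, where a gene had both, the gap of RPS18 went from 0.13 to 0.01 and that of RPS16 from 0.10 to 0.08, and both calls ended (adjusted p = 0.768 and 0.139). The gap of RPS29 went from 0.08 to 0.14 and passed (adjusted p = 0.0036). Probe sets so marked were used for 13 members in the comparison above.

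In 7 pairs no difference between A and B was called. Among them, the intervals of A minus B were -0.13 to 0.02 for RPS0, -0.02 to 0.12 for RPS24, -0.10 to 0.04 for RPS26, -0.05 to 0.08 for RPS23 and -0.07 to 0.07 for RPS21, beside RPS29. Each is narrow beside the gap of RPS9, but none shows that the copies responded alike. Both RPS0 copies fell, at -0.34 and -0.29, and both copies rose in RPS21, at 0.14 each, and in RPS26, at 0.15 and 0.17.

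By chromosome, the members' differences also varied. The 4 members on chromosome II, RPS6B and RPS9B among them, were all below 0, from -0.18 to -0.05 with a median of -0.06, and 1 fell. All 387 genes of that chromosome had a median of -0.32, and 60.5% fell. RPS14B and RPS22A lie next to each other on chromosome X, and both rose, by 0.63 and 0.19. RPL39, also beside RPS22A, rose by 0.30. RPS19B was at 0.06 beside RPL18B at 0.05, and RPS9B at -0.06 beside RPL21A at 0.0, and none of these passed. RPS16A and RPS16B each lie beside a gene of the RPL13 pair. RPS16A rose by 0.18 next to RPL13B, which fell (-0.22), so these neighbours did not share a direction. RPS16B was at 0.09 and did not pass limma (adjusted p = 0.138), next to RPL13A, which fell (-0.26).

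The arrays differed among themselves in a way that most members shared. On empty-plasmid replicate 1, 46 of the 52 genes were above their empty-group mean, on replicate 2 24 were, and on replicate 3 5 were, with median deviations of 0.03, 0.00 and -0.03. On the yEVenus arrays 38 or 39 genes were above that mean, with medians of 0.09 to 0.11. A control probe set for the 5' part of 18S rRNA, the RNA of the small subunit, read 10.51, 11.70 and 12.87 on the empty-plasmid arrays and 10.95, 11.45 and 11.10 on the yEVenus arrays. Its groups overlapped, and its part in the members' values was not tested. Without yEVenus replicate 2, 14 members rose and 5 fell, and without empty-plasmid replicate 2, 15 rose and 8 fell. No share over all genes is given for these fits.

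Genes of the wider pathway are given by list. Among 70 RPL genes 24 rose and 10 fell (34.3% and 14.3%; 17 and 27 genes with the length trend removed), and the median was 0.08. The background for this and the lists below is 29.3% of all genes rising and 41.0% falling, or 31.4% and 33.5% with the length trend removed. RPL3, for a protein near the peptidyl transferase centre, fell by 0.36 (adjusted p = 3.16e-04). RPL22B, whose splicing its own protein blocks, rose by 0.49 (adjusted p = 7.73e-04). Of 12 genes listed as regulators of ribosomal protein or ribosome biogenesis genes, 11 fell and 0 rose in limma, with a median of -0.43. Their median gene length was 2124 nt, and of all genes over 800 nt 50.9% fell. The list was not split into activators and repressors. DOT6, a repressor of ribosome biogenesis genes, was at -0.64 and HMO1, which binds many ribosomal protein promoters, at -0.57 (adjusted p = 4.26e-05 and 1e-04). With the length trend removed, 8 of the 12 fell, with a median of -0.22. The twelfth gene, YAK1, was at -0.13 (adjusted p = 0.068).

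Factors that assemble or bind the small subunit were measured too. Of 18 assembly factors and dedicated chaperones, 12 fell and 1, BUD23, rose, with a median of -0.26. KRR1, of the early precursor, was at -0.70 and YAR1, the chaperone of Rps3, at -0.75 (adjusted p = 1.47e-05 and 1.69e-05). Of 14 initiation factor genes, 12 fell and 1, SUI1, rose, with a median of -0.44. TIF35 and PRT1, subunits of the factor that coats the small subunit before initiation, were at -0.46 and -0.48 (adjusted p = 7.63e-05 and 8.9e-05). After removal of the length trend 12 and 14 of these genes fell, with medians of -0.29 and -0.28. ASC1, whose product sits on the head, was at -0.03 (adjusted p = 0.584) and, with the length trend removed, at 0.13 (adjusted p = 0.0251). STM1, for a protein that clamps idle ribosomes, fell by 0.36 (adjusted p = 3.26e-04).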

How the data were processed

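Total RNA was hybridised to 6 Affymetrix yeast arrays after 3'-primed labelling, as the labels' protocols state. Values were used as deposited, as log2 levels of each probe set on each array. Per the submitters' processing notes they were made with RMA in R 3.2.0; the annotation is not given in the sources used here. There were 5900 probe sets, of which 5498 name 1 gene and 402 none in the platform annotation. The brightest probe set of each gene was kept, as 47 genes had several, leaving 5449 genes, all matched to a RefSeq gene table of assembly R64 for chromosome and length. No coordinates or sequences are printed, as no build is named and no sequence table was used here.

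The yEVenus group was set against the empty-plasmid group by lmFit and eBayes of limma 3.58.1, run in R 4.3.3 (4 residual degrees of freedom, two-sided, Benjamini-Hochberg over all genes, threshold 0.05). Paralogues were compared by the same test on within-array A minus B values, adjusted over 52 pairs. With 3 arrays a group, exact permutation could reach no p under 0.1, so none is given. The number of arrays limits the precision. The tests were checked on simulated arrays.

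Genes described in full were the 10 largest differences past the threshold with groups apart and both genes of the pairs with the 8 largest gaps; the highest and lowest genes without a paralogue were named; in each list of the pathway they were the 2 with the smallest p. The members, lists and tests were chosen with earlier results of these data known, and other members were named after their values were seen. Same-numbered arrays were not paired: the correlation of their deviations from the group means was 0.193, -0.129 and 0.196. The values of some members are counted in the totals but not reported here, and these members are left out of the plots that label genes.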

Additional observations from a re-analysis of the deposited data

How the results depend on the processing

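Scaling by cyclic loess or quantiles, averaging or testing every probe set, other variance models, array weights and leaving out the dimmest 25% of genes kept all 30 calls of the small subunit genes. The median difference of 0.09 became 0.16 with median centring, where 4 genes fell, and -0.04 or, with shorter paralogue lengths (chosen after seeing the data, as were the plainly named probe sets), -0.07 with the length trend removed. Those removals gave 8 and 6 rises and 21 and 22 falls. A threshold of 0.01 gave 17 calls (12 rises, 5 falls), and a minimum change of 1.2-fold 5 rises and 0 falls, and 2 pairs. Without pairs that use a probe set marked as shared or cross-matching, 8 of the remaining 12 pairs were called. The replicate block gave 28 gene calls, 20 of them rises, and 12 pairs. Leaving out each array in turn gave 19 to 30 calls (14 to 22 rises, 5 to 8 falls), medians of 0.07 to 0.11 and 10 to 14 pairs. The 0.07 was without empty-plasmid replicate 3, the 19 calls without yEVenus replicate 2, and the 10 pairs without either of these arrays. No share over all genes or pairs is given for the threshold of 0.01, the 12 pairs, the replicate block or the left-out arrays. Whether the members or the whole table moved there was not tested. Among genes and gaps called in either fit, signs turned with the length trend removed for RPS12 (-0.33), RPS20 (-0.47), RPS21A (-0.08), RPS22A (-0.30), RPS25A (-0.40), RPS25B (-0.13), RPS26A (-0.38), RPS26B (-0.35), RPS28A (-0.27), RPS28B (-0.60), RPS29A (-0.34), RPS29B (-0.42) and RPS31 (-0.28), and for the gaps of RPS21 (-0.12) and RPS27 (-0.05). With shorter paralogue lengths these genes kept the same values except RPS29A (-0.33), and RPS21B joined them (-0.09). Signs also turned in 4 genes called in neither fit, RPS2 (-0.06), RPS14A (-0.01), RPS23A (-0.04) and RPS23B (-0.03). The gap of RPS23, also called in neither fit, turned from 0.02 to -0.01 with the length trend removed. With plainly named probe sets the gap of 1 further pair turned (-0.07). So did the uncalled gap of RPS24, from 0.05 to -0.01. The cause was not tested. Removal with introns left out, by protein length, was not run.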
